A study of Pinus pinaster with 24 samples.

Results

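Of the transcripts measured in dissected root tips of Pinus pinaster, the maritime pine, 29 of 47118 were low in the root cap and high in each of the 3 other tissues when seedlings were given water. They were selected on the values of the 12 water libraries, as mean log2(value + 1) in developing vessels, developing cortex, meristem and root cap. The largest step between neighbouring tissue means had to lie directly above the root cap, to be at least 1 on the log2 scale, and to leave all 3 root cap values below the 9 others. A limit of 200 members was not reached. That step lay above the root cap in 1401 transcripts, was at least 1 in 71 of these, and kept the libraries apart in 29. The same rule found 572 transcripts low only in meristem, 675 low only in developing vessels and 118 low only in developing cortex. The water levels chose the members, so they are a description and carry no test.

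The libraries came from seedlings about 1 month old, of the provenance Segura-Alcaraz, grown in vermiculite with distilled water. Every group had first received a nutrient solution without nitrogen and 3 days of acclimation. The control group was then irrigated with 80 mL of water and the treated group with 80 mL of 3 mM NH4Cl, an ammonium salt, and root tips were taken 24 h later. The 4 tissues were cut by laser microdissection from frozen sections 30 µm thick. Each tissue and treatment had 3 libraries, from experiments numbered 1, 3 and 4, made from amplified cDNA. Whether the experiments used separate plants is not stated, so p-values measure only how far these libraries differ among themselves, and that spread may be technical.

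The root cap is the thimble of cells that covers the root meristem. It senses gravity, secretes mucilage and sheds its outermost cells into the soil, while the meristem behind it divides and supplies the vessels and cortex that mature further up the root. A transcript low only in the cap is one that dividing cells and both maturing tissues share. The files pair 0 of the identifiers with a gene name, so no member has a known product here and no marker gene could be used to check the dissected tissues. Levels are compared within a transcript only, because transcript lengths are not given.

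Depth was even, between 67135000 and 88269000 recovered reads per library. Values are reads divided by a scaled library size, and 3 reads correspond to 0.0309 to 0.0493. Across all tested transcripts, 3 of the 12 ammonium libraries resembled the water mean of another tissue more than that of their own. The meristem library of experiment 3 correlated best with cortex (r = 0.947, against 0.854 with meristem). The meristem library of experiment 4 correlated best with root cap (0.898 against 0.882), and so did the cortex library of experiment 1 (0.942 against 0.928). A list of 200 transcripts high only in the root cap under water summed to 5756 in the meristem library of experiment 4, against 49.9 and 87.9 in the 2 other meristem ammonium libraries and 9142 to 35449 in root cap ammonium libraries. Of the 200, 9 were listed at 0 there, against 38 and 40. In the cortex library of experiment 1 the list summed to 14557, against 3991 and 4999.9 in the 2 others. Several of the counts and medians that include these libraries are given again without them.

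Under water, the median of the 29 members lay at log2 levels of 1.20 to 3.67 in the root cap libraries, 4.47 to 4.91 in meristem, 5.10 to 5.59 in cortex and 5.72 to 6.31 in vessels. The step above the root cap had a median of 1.57 (range 1.08 to 2.26). In 27 members meristem was the lowest of the 3 high tissues, so the step mostly measures root cap against meristem. The highest mean was in vessels for 16 members, in cortex for 13 and in meristem for 0. In these bulk samples, fewer cells of a type and less RNA per cell cannot be told apart.

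**Figure D1:**
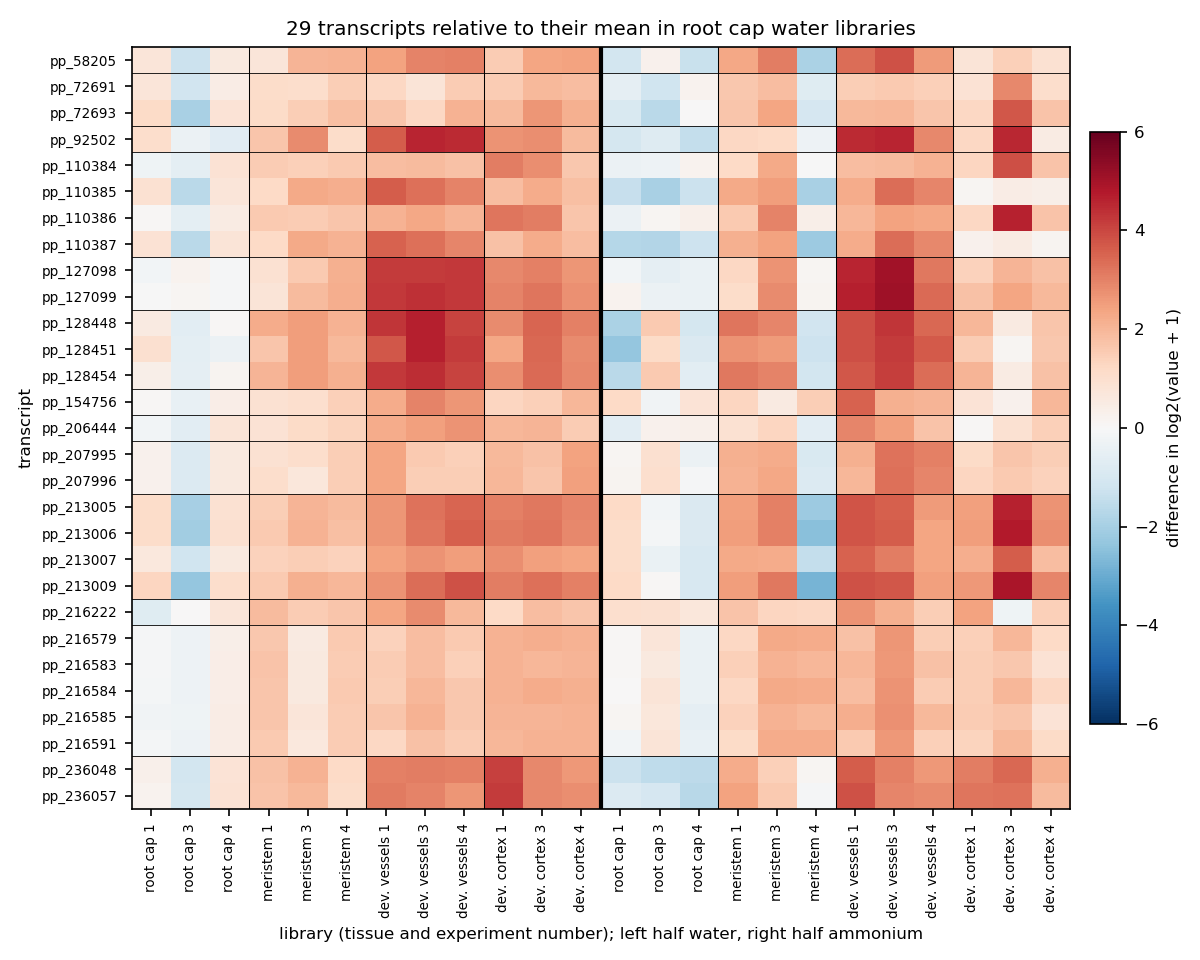
Level of each of the 29 transcripts (rows, in identifier order, thin lines between neighbourhoods of identifiers) in each of the 24 libraries (columns, water left and ammonium right), as the difference in log2(value + 1) from the transcript's own mean in root cap water libraries. Rows turn from pale in root cap to red in the other tissues, and most rows are pale or blue again in the meristem ammonium library of experiment 4.

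The widest step was that of pp_128448. Its values in the root cap water libraries of experiments 1, 3 and 4 were 11.8, 4.82 and 8.43. They were 40.6, 48.7 and 36.4 in meristem, 63.1, 98.0 and 71.6 in cortex, and 175, 222 and 149 in vessels. The lowest meristem value thus lay above the highest root cap value, and the 4 tissues did not overlap. The second, pp_128454, held 5.96, 2.67 and 5.08 in root cap and 21.5, 29.2 and 22.6 in meristem, with a step of 2.23 beside the 2.26 of pp_128448. At the other end, pp_207996 was the last inside the limit with a step of 1.08, from 2.28, 0.532 and 3.11 in root cap to 4.62, 3.46 and 6.76 in meristem. Its highest root cap value and lowest meristem value were close. The first transcript outside, pp_72692, had a step of 0.99, one of 180 that met every condition but the size of the step.

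Members near in identifier number were mostly alike, so the 29 are not treated as independent. They formed 20 runs of consecutive numbers, and 13 neighbourhoods when numbers at most 20 apart were joined, a distance chosen after the identifiers were seen. Of these 5 were single members, and the largest held 5. Pairs of members in one neighbourhood had a median correlation of 0.992 over the 12 ammonium libraries (29 pairs, lowest 0.653). For pairs from different neighbourhoods it was 0.693 (377 pairs, lowest -0.151). All these pairs share the libraries. No identifier is paired with a gene, so counts of members are not read as counts of genes.

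The longest run, pp_110384 to pp_110387, held 4 members of 2 patterns. Under water pp_110387 held 114, 98.6 and 75.5 in vessels and 32.6, 45.7 and 34.8 in cortex, so vessels were the higher. In pp_110384 the order was the other way, with 7.64, 7.89 and 7.09 in vessels and 19.1, 15.7 and 6.44 in cortex, although one cortex library lay below all 3 vessel libraries. After ammonium the 2 also parted in cortex of experiment 3, where pp_110384 held 34.9 against 4.97 and 6.89 in experiments 1 and 4, and pp_110387 held 13.2 against 10.8 and 10.2. Adjacent identifiers thus did not always move together.

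The ammonium libraries had no part in the choice of members and allow a test of the same order of tissues in other samples. All 29 members passed the filter on low values there, 20 of them with a value of at least 1 in every root cap library, while the others passed only with the help of the tissues where they were high. The counts below include those others. The mean was lower in root cap than in each other tissue for 29 of 29 members, as for 21.2% of all 45169 tested transcripts. The median difference on the log2 scale was -3.08 against vessels, -1.87 against cortex and -1.73 against meristem, where the medians of all tested transcripts were -0.04, 0.02 and -0.05. The smallest of a member's 3 differences had a median of 1.42 (range 0.30 to 2.72), and in 22 members it was still at least 1, as in 0.562% of all tested transcripts. Without the meristem library of experiment 4 that median was 1.87 and 26 members reached 1 (0.976% of all tested transcripts). Without the meristem libraries of experiments 3 and 4, which left 1 meristem library, it was 1.66. Without the cortex library of experiment 1 it was 1.47, with 22 members at 1 or more (0.509% of all tested transcripts). Root cap was then the lowest tissue in 28 of 29 members (17.9% of all tested transcripts).

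**Figure D2:**
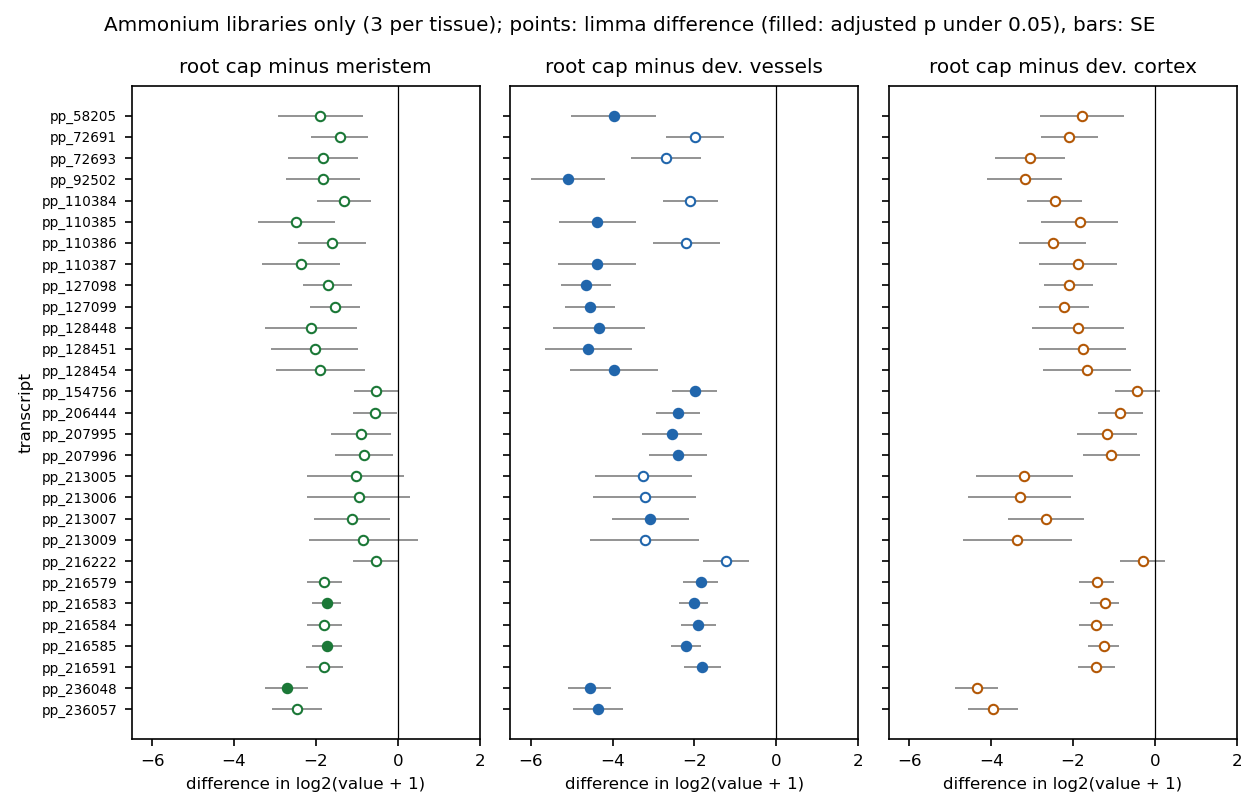
Root cap minus meristem, developing vessels and developing cortex in the 12 ammonium libraries, for each of the 29 transcripts (points, limma difference in log2(value + 1); bars, SE; filled points, adjusted p under 0.05). All points lie below 0, with 3 filled for meristem, 21 for vessels and 0 for cortex.

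Against vessels all members were lower in the root cap by mean, and most also by test. By limma on the 12 ammonium libraries, 21 of 29 passed an adjusted p of 0.05, against 7.98% of all tested transcripts called lower. Called members that passed the filter only with the help of their high tissues were pp_58205, pp_127098, pp_127099, pp_128454, pp_154756, pp_206444 and pp_213007. In pp_127098 the root cap libraries held 0.568, 0.190 and 0.306. The count of 21 includes these members, and none was made without them. These 21 lay in 11 of the 13 neighbourhoods. All 3 root cap values lay below all 3 vessel values in 29 of 29 members, against 19.0% of all tested transcripts. Leaving out vessel experiment 3 gave 10 calls (3.85% of all transcripts) and vessel experiment 1 gave 11 (3.35%), while leaving out root cap experiment 1 gave 13 (6.02%) and root cap experiment 4 gave 11 (5.92%). The quasi-likelihood test of edgeR, run on the recovered reads, called 13 (6.74% of all transcripts), and DESeq2 called 28 (10.1%). Without meristem experiment 4 the limma count was 27 (8.61%), and without cortex experiment 1 it was 19, of 3380 transcripts called in all.

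Against meristem 3 members were called, against 0.0797% of all tested transcripts. They were pp_236048, pp_216583 and pp_216585, from 2 neighbourhoods, of which the last 2 were named after their values were seen. The count rested on single libraries. The edgeR test called 1 member (0.0819% of all transcripts) and DESeq2 called 11 (2.31%). The limma count was 9 without the meristem library of experiment 4, when 0.677% of all tested transcripts were called. Without the meristem library of experiment 1 or 3 it was 0, of 4 and 49 transcripts in all. Without the root cap library of experiment 1 or 4 it was also 0, of 1 and 8. It was 1 without the vessel library of experiment 1, of 22 in all, and 2 without the cortex library of experiment 1, of 18. The root cap values lay below all 3 meristem values in 11 members (6.24% of all tested transcripts), and in 28 members (14.0%) without the meristem library of experiment 4.

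Against cortex 0 members and 0 of all tested transcripts (0%) were called by limma, while 18 members and 2590 of all transcripts had an unadjusted p under 0.05. The lowest adjusted p of a member, that of pp_236048, was also the lowest of all transcripts (limma adjusted p = 0.110). The edgeR test called 0, and DESeq2 called 8, against 1.04% of all transcripts. The root cap values lay below all 3 cortex values in 23 members, against 7.14% of all tested transcripts, and in 24 (11.5%) without the cortex library of experiment 1. Without the meristem library of experiment 4 limma called 2 members, of 6 transcripts in all (0.0134%). It called 1 member, of 25 transcripts in all, without the meristem library of experiment 3. Without the cortex library of experiment 4 it called 1 member, of 8 in all.

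A call against all 3 tissues at once was made for 0 members and 0% of all transcripts by limma. At an unadjusted p under 0.05 in all 3 contrasts, 9 members were lower in the root cap, as were 74 of all 45169 transcripts. The edgeR test called 0 and DESeq2 called 4, against 0.379% of all transcripts. Without the meristem library of experiment 4 limma called 2 members of 6 transcripts in all (0.0134%). These were pp_236048 and pp_236057, named after their values were seen. Without the cortex library of experiment 4 limma called 1 member, of 1 transcript in all. With the experiment number as a block, the shares of all transcripts called were 0.146% against meristem, 9.71% against vessels, 0.00443% against cortex and 0.00443% against all 3, beside 7, 25, 2 and 2 members. The root cap values lay below all 9 others in 10 members (0.693% of all tested transcripts), or in 23 (2.14%) without the meristem library of experiment 4 and 10 (0.828%) without the cortex library of experiment 1.

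The member with the clearest separation was pp_236048, which also had the most recovered reads over the 12 ammonium libraries (664707). Its root cap ammonium libraries held 61.2, 52.2 and 49.9. Those of meristem held 718, 406 and 162, those of vessels 1904, 1255 and 925, and those of cortex 1298, 1639 and 674. Root cap stood apart from every other tissue, with a mean of 54.4 ± 5.97 (SD, n = 3) in root cap and 429 ± 278 in meristem. The log2 difference was -4.56 against vessels (SE 0.52, limma adjusted p = 0.000229), -4.35 against cortex (limma adjusted p = 0.110) and -2.72 against meristem (limma adjusted p = 0.0240). The call against meristem ended without the root cap library of any experiment or the meristem library of experiment 1 or 3, and over all its alternatives the adjusted p ran from 5.47e-06 to 0.0907. Its partner pp_236057 followed it, with 22.6, 19.4 and 12.2 in root cap and 223, 121 and 38.3 in meristem.

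A group of 5 members lay between pp_216579 and pp_216591. For pp_216584, second by recovered reads (278447), the root cap ammonium libraries held 99.9, 167 and 73.4. Meristem held 235, 480.0 and 462, vessels 358, 638 and 285, and cortex 272, 395 and 230.4. All 9 values lay above the root cap values, by a log2 difference of -1.90 against vessels (SE 0.43, limma adjusted p = 0.0110), -1.79 against meristem (limma adjusted p = 0.0643) and -1.44 against cortex (limma adjusted p = 0.666). The 2 members of the group called against meristem, pp_216583 and pp_216585, differed by -1.74 (SE 0.35, limma adjusted p = 0.0312) and -1.73 (SE 0.38, limma adjusted p = 0.0442). Those calls ended in 8 and 13 of 22 alternatives, edgeR and the fit without the meristem libraries of experiments 3 and 4 among them, within ranges of 0.000191 to 0.155 and 0.000939 to 0.183.

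**Figure D3:**
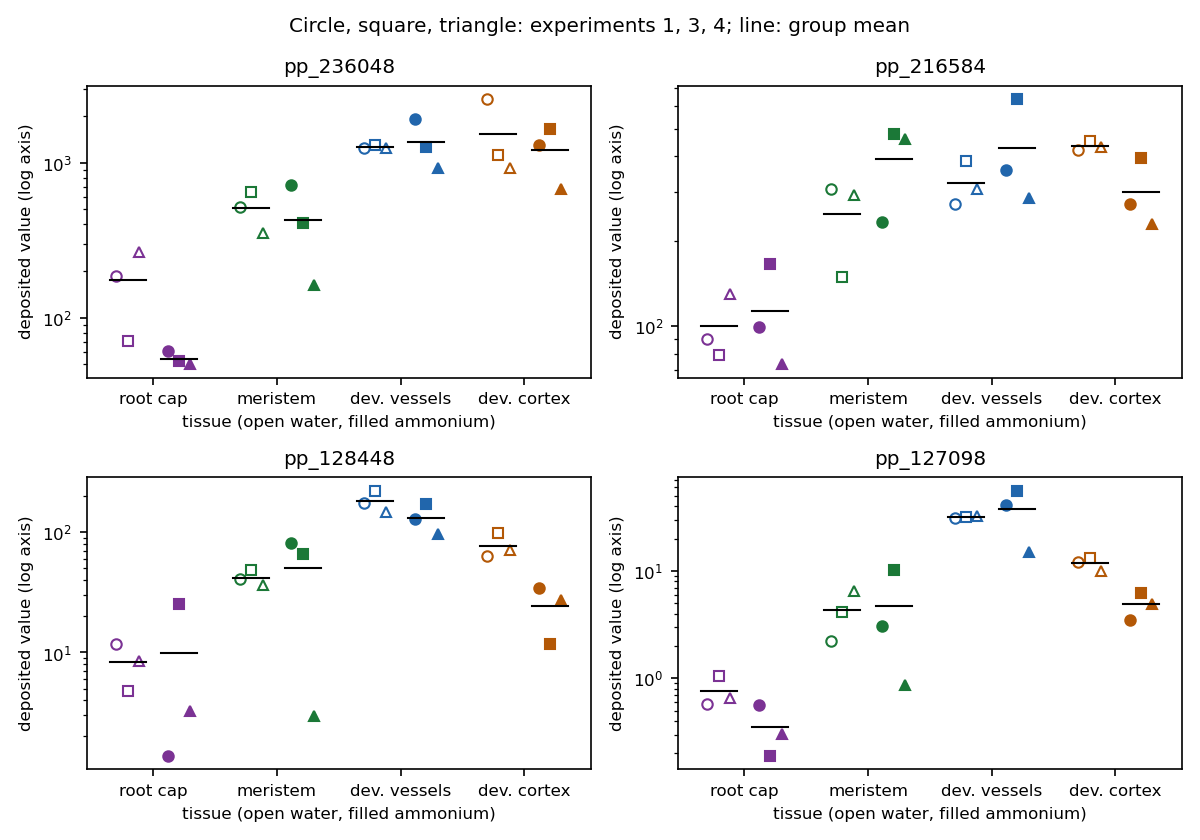
Deposited values of 4 transcripts in every library on a log axis, by tissue, with water open and ammonium filled, experiments 1, 3 and 4 as circle, square and triangle, and a line at each group mean. In pp_236048 root cap ammonium libraries sit at 49.9 to 61.2, and the meristem ammonium library of experiment 4 falls to 2.94 in pp_128448 but stays at 462 in pp_216584.

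The 2 members with the weakest pattern in ammonium libraries were pp_216222 and pp_154756. For pp_216222 the root cap libraries held 7.99, 7.69 and 6.23 and the cortex libraries 22.7, 2.70 and 10.9, so cortex spanned the root cap values. Its difference from cortex was -0.30 (SE 0.56, limma adjusted p = 0.976), and it turned to 0.32 above cortex without the cortex library of experiment 1. For pp_154756 the root cap libraries held 3.13, 0.570 and 2.16 and the cortex libraries 2.25, 1.15 and 6.11, with a difference of -0.43 (SE 0.54, limma adjusted p = 0.952). This became 0.051 above the closest tissue without the cortex library of experiment 4. Both groups overlapped, and the order seen under water was not shown for these 2 members. Both lay above their own midpoint between root cap and the next tissue in the root cap ammonium library of experiment 1.

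The members did not move as a block within the root cap. The midpoint of each member's water step was used as a mark, and the number of members below it was counted per library. After ammonium it was 23, 19 and 28 of 29 in root cap of experiments 1, 3 and 4, and 23, 29 and 20 in the water libraries. In experiment 1, 4 of the 6 members above the mark were those between pp_213005 and pp_213009. In experiment 3 they were mostly other transcripts, with all 3 members from pp_128448 to pp_128454 among the 10, and pp_216222 was above the mark in both. Thus pp_128448 held 1.38, 25.3 and 3.23 in root cap after ammonium, and its root cap range overlapped that of cortex (34.5, 11.8 and 27.4).

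The meristem ammonium library of experiment 4 divided the members. In it 22 of 29 lay below the mark, against 0 and 1 in the 2 other meristem ammonium libraries. Values of 10 members were below all 3 root cap ammonium values and those of 7 within their range. These counts were not made over all transcripts, so nothing particular to the members is read from them. For pp_128448 it held 2.94, against 81.8 and 66.3 in experiments 1 and 3, and for pp_213009 it held 0.647, against 64.5 and 104. The 7 members above the mark were the 5 between pp_216579 and pp_216591, with pp_216222 and pp_154756. Thus pp_216584 held 462 there, close to the 480.0 of experiment 3 and above the 235 of experiment 1. The list of transcripts high in root cap was also raised in this library, as given above, and its part in these values was not tested. In the 2 other meristem ammonium libraries, 28 of 29 members lay above all 3 root cap values, as did 14.0% of all tested transcripts.

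**Figure D4:**
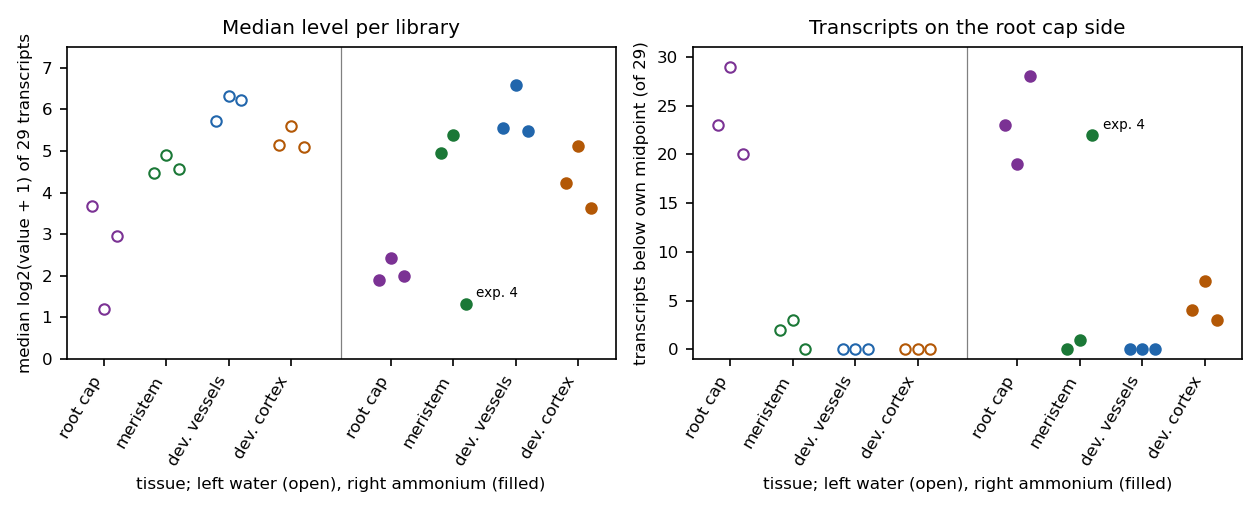
Left, the median log2(value + 1) of the 29 transcripts in each library, by tissue (water open, ammonium filled). Right, the number of the 29 below the midpoint of their own water step. The meristem ammonium library of experiment 4 has a median of 1.33 and 22 transcripts below the midpoint, beside 1.90 to 2.42 and 19 to 28 in root cap ammonium libraries.

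Among the 3 high tissues, vessels were highest after ammonium for 23 members and cortex for 6, and 18 of 29 had the same highest tissue as under water. Without the meristem library of experiment 4, vessels were highest for 23, cortex for 5 and meristem for 1, and without the cortex library of experiment 1 vessels were highest for 22 and cortex for 7. By the limma F test of these 3 tissues, 2 members differed, against 13.4% of all tested transcripts. They were pp_127098 and pp_127099, which are adjacent in number. In ammonium libraries pp_127098 held 41.2, 56.2 and 14.9 in vessels, 3.50, 6.28 and 4.92 in cortex, 3.07, 10.2 and 0.876 in meristem, and 0.568, 0.190 and 0.306 in root cap. Vessels stood above the other tissues in every library, and meristem and cortex overlapped. The difference of vessels from cortex was 2.54 (SE 0.60, limma adjusted p = 0.0154, range 0.00205 to 0.0782 over alternatives). It ended without the vessel library of experiment 1 or 3 or the cortex library of experiment 1 (limma adjusted p = 0.0782, 0.0677 and 0.0541).

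For pp_127099 the vessel libraries held 38.5, 51.6 and 15.5 and the meristem libraries 2.34, 10.0 and 0.761, a difference of -3.01 for meristem minus vessels (SE 0.61, limma adjusted p = 0.0127, range 0.00251 to 0.122). That call ended with edgeR (adjusted p = 0.122) and without the vessel library of experiment 1 or 3 (limma adjusted p = 0.118 and 0.0930). These were the 2 members called lower in meristem than in vessels (5.00% of all tested transcripts) and higher in vessels than in cortex (8.57%). In the opposite directions 0 members were called, against 0.655% and 8.28% of all transcripts. Between meristem and cortex limma called 0 members, against 0.120% higher and 1.44% lower of all transcripts. There 2 members had an unadjusted limma p below 0.05, beside 9474 of all tested transcripts. The lowest p of a member was that of pp_236048 (difference -1.64, SE 0.52, limma adjusted p = 0.129). Without the meristem library of experiment 4, limma called 9 members higher in vessels than in cortex, of 4046 transcripts in all. It also called 2 higher in meristem than in cortex, of 114. Without the cortex library of experiment 1, the count higher in vessels than in cortex was 0, of 2964. The F test called 5 members (13.9% of all transcripts) when meristem experiment 4 was left out and 4 (14.2%) when meristem experiment 1 was. It called 0 members when vessel experiment 1 (4.37%) or 3 (6.50%) was left out, and 5 (18.7%) when both meristem experiments 3 and 4 were. With edgeR it called 1 (11.9%), with DESeq2 4 (24.6%) and with the experiment number as a block 6 (18.2%). Nothing particular to the members is read from these counts.

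Ammonium was compared with water in each tissue over all 24 libraries. The water libraries of these contrasts also chose the members, low in the root cap and high elsewhere, so the differences are a description and nothing is read from their direction. By limma 0 members passed the threshold in any tissue, against 0.00639% of all tested transcripts in root cap, 0% in meristem, 0.00213% in vessels and 0.268% in cortex. The number at an unadjusted p under 0.05 was 1 in root cap, 0 in meristem, 0 in vessels and 4 in cortex, beside 1600, 5626, 1507 and 5046 of all 46960 transcripts. On recovered reads edgeR called 0 members and 0 of all transcripts in each tissue. DESeq2 also called 0 members, against 0.420% of all transcripts in root cap, 1.62% in meristem, 0.275% in vessels and 2.19% in cortex. The interaction of ammonium and tissue called 0 members and 0 of all transcripts by the limma F test. It had 1 member at an unadjusted p under 0.05, a count not made over all transcripts, so nothing is read from it. In that test edgeR called 0 members and 0 of all transcripts, and DESeq2 called 0 members and 8 of all 46960 transcripts.

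**Figure D5:**
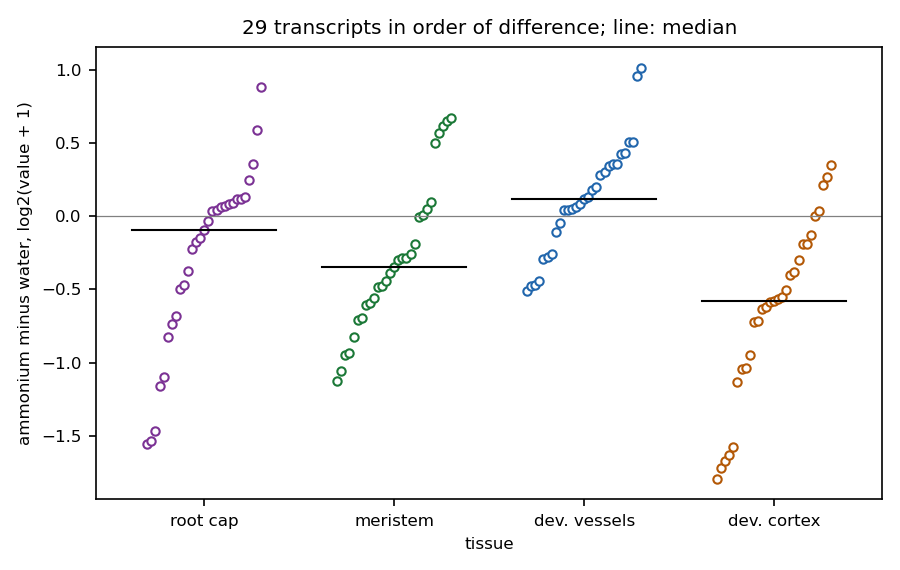
Ammonium minus water for the 29 transcripts in each tissue (points in order of size, difference in log2(value + 1); line, median). Medians are -0.09 in root cap, -0.35 in meristem, 0.12 in developing vessels and -0.58 in developing cortex, and points lie on both sides of 0 in every tissue. The meristem median turns to 0.52 without the ammonium library of experiment 4.

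The median log2 difference between ammonium and water was -0.09 in root cap (16 members lower and 13 higher), -0.35 in meristem (21 and 8), 0.12 in vessels (9 and 20) and -0.58 in cortex (24 and 5). The medians of all tested transcripts were -0.01, 0.01, -0.01 and -0.03. The meristem median turned to 0.52 without the meristem library of experiment 4 (4 lower and 25 higher) and to 0.30 without those of experiments 3 and 4 (9 and 20). The cortex median was -0.54 without the cortex library of experiment 1 (20 and 9). All 3 ammonium values lay below all 3 water values in 16 members in cortex (9.24% of all tested transcripts), in 3 in root cap (6.65%), and in 0 in meristem (6.01%) and vessels (4.25%). They lay above in 0 members in each tissue (6.03% of all tested transcripts in root cap, 4.38% in meristem, 4.44% in vessels and 6.37% in cortex). Without the meristem library of experiment 4, the ammonium values of meristem lay above all water values in 12 members (8.38%) and below in 0 (11.5%). Without the cortex library of experiment 1, those of cortex lay below in 16 (13.5%) and above in 0 (9.87%).

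The lowest unadjusted p in each tissue belonged to 4 different transcripts. In root cap it was pp_236048, whose water libraries held 186, 70.1 and 265 against 61.2, 52.2 and 49.9 after ammonium, with a difference of -1.47 (SE 0.52, limma adjusted p = 1). The ammonium values lay below all water values, with means of 54.4 ± 5.97 and 174 ± 98.2 (SD, n = 3). In meristem it was pp_216579, with 311, 146 and 293 under water and 237, 490.2 and 465 after ammonium (difference 0.67, SE 0.37, limma adjusted p = 0.458), and the groups overlapped. This difference was 0.00027 without the ammonium libraries of experiments 3 and 4, and 0.32 without the water library of experiment 3. In vessels it was pp_207995, with 13.2, 7.04 and 6.32 against 11.0, 25.2 and 21.1 (difference 1.02, SE 0.61, limma adjusted p = 1), which overlapped as well. In cortex it was pp_127098, with 9.98 to 13.4 under water against 3.50, 6.28 and 4.92 (difference -1.14, SE 0.49, limma adjusted p = 0.400), where the groups did not overlap.

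The corresponding sets of vessels and meristem, but not of cortex, were set beside the members in the ammonium libraries. Those sets held the 200 widest water steps of 675 and 572 transcripts, while the root cap set held all 29 that met the rule. Shares lower by at least 1 are thus not those of like sets. Of 200 transcripts low only in vessels under water, 200 had their lowest ammonium mean in vessels, and 99.5% by at least 1 on the log2 scale. Of 200 low only in meristem, 97.0% had their lowest ammonium mean there and 34.5% by at least 1. For the 29 low only in root cap these shares were 100% and 75.9%. Without meristem experiment 4, the shares lower by at least 1 were 92.5% for vessels, 40% for meristem and 89.7% for root cap, in the same order. Without the meristem libraries of experiments 3 and 4, which left 1 meristem library, the meristem set had the largest share and the vessel set the smallest. The order of the sets thus depends on which meristem libraries are kept. The differences between the sets were not tested.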

How the data were processed

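The deposited table gives a signal per transcript and library for the 24 libraries. The tools named, per the submitters' processing notes, are BWA and bcl2fastq, with no version. How reads were counted and scaled, and on which reference, is not given in the sources used here. In each library 100% of the deposited values were whole multiples of 1 read within 0.01 reads, so reads could be recovered. Column sums ran from 793680 to 1210367, so the signal is not plain CPM, which the planned design had assumed. The same log-scale test was used.

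Values were analysed as log2(value + 1), which understates changes at low levels. A transcript was kept where 3 or more libraries of a fit reached a value of 1, 45169 in the 12 ammonium libraries and 46960 in all 24. Tissue contrasts used limma 3.58.1 (R 4.3.3, empirical Bayes with trend) on the ammonium libraries, 4 groups sharing a spread. Ammonium contrasts used 8 groups over 24 libraries. Calls needed an adjusted p under 0.05 (Benjamini-Hochberg, over all transcripts tested). Alternatives were pseudocounts 0.1 and 4, no filter, quantile normalization, the experiment number as a block, edgeR 4.0.16 and DESeq2 1.42.0 on recovered reads, a log2 difference of at least 1, and fits without libraries. The fit without the cortex ammonium library of experiment 1 was entered under 2 names, so the 22 alternatives of a tissue contrast hold a repeat. Fits were tested on simulated data. Reads of amplified cDNA carry no molecular identifiers, so floors of 3 reads cover counting error only.

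Named members were those with the widest water step, just inside and outside the limit, weakest in ammonium libraries, leading in each contrast, most read, and at the ends of the longest run. The planned limit of 200 was not reached, so the limit on the step was used instead. The members and lists were chosen with earlier results of these data known.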

Additional observations from a re-analysis of the deposited data

How the results depend on the processing

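Counts of members lower in the root cap than in each other tissue, in meristem, in vessels and in cortex, and of members differing among the 3 high tissues, were 0, 3, 21, 0 and 2. Without single libraries they ranged from 0 to 2, 0 to 9, 10 to 27, 0 to 2 and 0 to 5. Over all transcripts the calls were 0, 36, 3606, 0 and 6060. Without single libraries those ranged from 0 to 6, 1 to 304, 1469 to 3873, 0 to 25 and 1921 to 7320. Without both meristem ammonium libraries of experiments 3 and 4, all member counts but that in vessels moved too. That fit left 1 meristem library, assumed to vary like the others, so its counts are not given here. DESeq2 gave 4, 11, 28, 8 and 4, and edgeR gave 0, 1, 13, 0 and 1. The cause was not tested. The replicate block gave 2, 7, 25, 2 and 6, and pp_236048 passed between meristem and cortex (limma adjusted p = 0.0437 with the block, 0.129 without). Same-numbered libraries were not all alike at the correlation threshold of 0.1. Deviations of same-numbered ammonium libraries correlated at -0.18 to 0.64 (15 of 18 pairs over 0.1). Those of water and ammonium libraries correlated at -0.34 to 0.35 (4 of 12). In the first family 10 of 12 libraries, and in the second 7 of 24, correlated best with their own number. Same-numbered ammonium libraries thus mostly went together, and the main tissue fit, planned without a block, did not use this. Other settings stayed within 1.5 times these counts. The 4 counts of members changed by ammonium were 0 under every alternative run, block included. For named members, the difference to the closest tissue ran from -0.72 to 0.051 for pp_154756 and from -0.53 to 0.32 for pp_216222 without single libraries, turning to 0.051 and 0.32 without the cortex ammonium libraries of experiments 4 and 1. The rule itself depended on its pseudocount: 84 transcripts met it at 0.1, including all 29, and 18 at 4, all among the 29. Members lay above 3 reads in every library but the meristem ammonium library of experiment 4, where 1 was at or under that floor.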

Other observations

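Neighbourhoods of 2 or more members spanned 45 listed identifiers, of which 24 were members. Of the 21 others, 13 had their lowest water mean in the root cap and 12 their lowest ammonium mean there, with a log2 difference of 1 or more in 3. Among all 45169 tested transcripts 21.2% had their lowest ammonium mean in the root cap. In 3 of the 21 the widest water step lay above the root cap, and in 1 it was at least 1. These neighbours share libraries and identifier ranges with the members and are not independent of them, and the comparison was made after the identifiers were seen.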
